A study of Mus musculus with 75 samples.

Results

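Leukocyte adhesion and endothelial activation were followed through 9 genes, *Icam1*, *Icam2*, *Vcam1*, *Sele*, *Selp*, *Klf2*, *Klf4*, *Vwf*, and *Nos3*, in whole mouse kidneys 3 days after unilateral ureteral obstruction (UUO). The genes were taken by their symbols, and all 9 had a row among the 32245 genes of the count table. In UUO a ureter is tied, and the unobstructed contralateral (CL) kidney serves as the comparison. The 75 libraries fell into 3 arms with 12 groups, and adult mice of both sexes were used.

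The ABTAA arm held mice given ABTAA, an antibody that binds angiopoietin-2 and clusters it to activate the endothelial receptor TIE2 (7 CL and 7 UUO libraries), and mice given control IgG (8 CL and 8 UUO). The *Veptp* arm held VeptpKO mice (6 CL and 8 UUO) and VeptpWT mice (7 CL and 8 UUO). The VeptpWT UUO libraries outnumber the VeptpWT mice that the study counts, the labels do not show which would be extra, and all were used. In VeptpKO mice the gene *Ptprb*, which encodes the TIE2 phosphatase VE-PTP, was deleted by a tamoxifen-inducible Cre under the endothelial *Cdh5* promoter; their controls carried this Cre with 1 floxed allele and were not induced. The *Pdgfb* arm held PdgfbKO mice, in which a ubiquitous tamoxifen-inducible Cre deleted the gene of the growth factor PDGFB, and Cre-negative PdgfbWT mice, with 4 libraries in each CL and UUO group. The PdgfbWT CL samples included sham kidneys, which the labels do not tell apart from the rest. All mice with UUO received the analgesic carprofen.

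Endothelium that is activated by cytokines puts adhesion molecules on its surface in sequence. Selectins (*Sele*, *Selp*) catch flowing leukocytes, and ICAM1 and VCAM1 then hold them through leukocyte integrins, while ICAM2 is present on resting endothelium. KLF2 and KLF4 are transcription factors that laminar flow induces in endothelium and that restrain such activation. *Nos3* encodes endothelial nitric oxide synthase, and *Vwf* encodes von Willebrand factor, which is stored with P-selectin in Weibel-Palade bodies. Tubular epithelium of the injured kidney can also make ICAM1 and VCAM1, and KLF4 is made by several kidney cell types, so RNA of the whole kidney does not tell which cell a transcript came from.

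The promoters of genes that moved with UUO and of a selectin that was hardly counted are shown for reference. RefSeq windows (GRCm38.p6, 250 bases before to 50 after the start) were held for 5 of the 9 genes, *Icam1*, *Sele*, *Selp*, *Klf2*, and *Klf4*; *Vcam1*, *Icam2*, *Vwf*, and *Nos3* had none. The letters searched, on both strands, were GGNNNTTCC (NF-kB-like), CACCC (KLF-like), and TGANTCA (AP-1-like), which occurred in 18.5%, 57.5%, and 7.81% of all 32851 windows. The lines give the 250 bases before the start, and for *Klf4* also the first 6 bases after it, with GGNNNTTCC matches of either strand in capitals.
Icam1, chr9:21015690-21015939, plus strand: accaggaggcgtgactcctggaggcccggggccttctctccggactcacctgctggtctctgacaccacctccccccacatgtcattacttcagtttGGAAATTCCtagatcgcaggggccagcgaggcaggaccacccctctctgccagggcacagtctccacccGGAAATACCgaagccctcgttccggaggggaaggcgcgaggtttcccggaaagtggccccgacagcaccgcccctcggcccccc
Sele, chr1:164047984-164048233, plus strand: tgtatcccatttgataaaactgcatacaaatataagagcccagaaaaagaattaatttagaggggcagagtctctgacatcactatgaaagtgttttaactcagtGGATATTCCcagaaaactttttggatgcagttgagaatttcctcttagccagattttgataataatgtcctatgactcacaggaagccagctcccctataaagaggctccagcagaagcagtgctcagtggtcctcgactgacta
Klf4, chr4:55532470-55532725, minus strand: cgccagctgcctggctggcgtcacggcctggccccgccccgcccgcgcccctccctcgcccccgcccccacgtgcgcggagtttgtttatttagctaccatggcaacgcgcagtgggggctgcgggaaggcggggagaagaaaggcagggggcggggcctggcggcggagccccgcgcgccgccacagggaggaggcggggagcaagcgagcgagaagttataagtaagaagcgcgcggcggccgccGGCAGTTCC
The *Icam1* window held 2 NF-kB-like matches, which began 153 and 84 bases before the start, and 3 KLF-like matches. The *Sele* window held 1 NF-kB-like match at 145 bases and 1 AP-1-like match at 73 bases before the start. The *Klf4* window held 1 NF-kB-like match that began 3 bases before the start. The *Selp* window held 1 match of each kind, and the *Klf2* window held 1 KLF-like match alone. A match describes these letters, and binding was not measured.

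Depth decided which of these genes could be tested. Libraries held between 172827 and 2341800 counts, with a median of 757897, and no 2 columns were identical. Over all libraries *Vcam1* received 18194 counts, *Icam1* 5228, *Klf4* 740, *Icam2* 598, *Nos3* 401, *Klf2* 349, *Vwf* 292, *Selp* 45, and *Sele* 17. After edgeR's filter on low counts, 2 of the 9 genes were tested in the ABTAA arm (*Icam1*, *Vcam1*), 5 in the *Veptp* arm (these with *Icam2*, *Klf4*, and *Nos3*), and 5 in the *Pdgfb* arm (*Icam1*, *Icam2*, *Vcam1*, *Klf2*, and *Klf4*). *Sele*, *Selp*, and *Vwf* passed it in no arm. Levels are given as CPM, counts scaled to a common library total by edgeR's TMM factors, which were set within each arm, so levels side by side across arms were scaled separately.

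Library names came in a plain form (45 libraries) and a form with a separator sign (30 libraries), here called split; what the form stands for is not given in the labels. The genes *Gm42418* and *AY036118*, which overlap ribosomal RNA sequence, took 7.32% to 18.7% of counts in plain and 3.89% to 5.91% in split ABTAA-arm libraries, and 9.18% to 21.8% and 0.325% to 0.778% in the *Veptp* arm. Each ABTAA-arm and *Veptp*-arm group had libraries of both forms, whereas all 16 *Pdgfb*-arm libraries were plain. In 24 of the 75 libraries, 22 plain and 2 split, both *Xist* and Y-linked genes had at least 10 counts, among them 4 of 4 PdgfbKO UUO, 0 of 4 PdgfbKO CL, 2 of 4 PdgfbWT UUO, and 2 of 4 PdgfbWT CL libraries. A single mouse carries *Xist* RNA or Y-linked RNA, so these libraries are named here before the results that rest on them. In bulk kidney RNA, fewer cells of a type and less RNA per cell cannot be told apart.

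**Figure D1:**
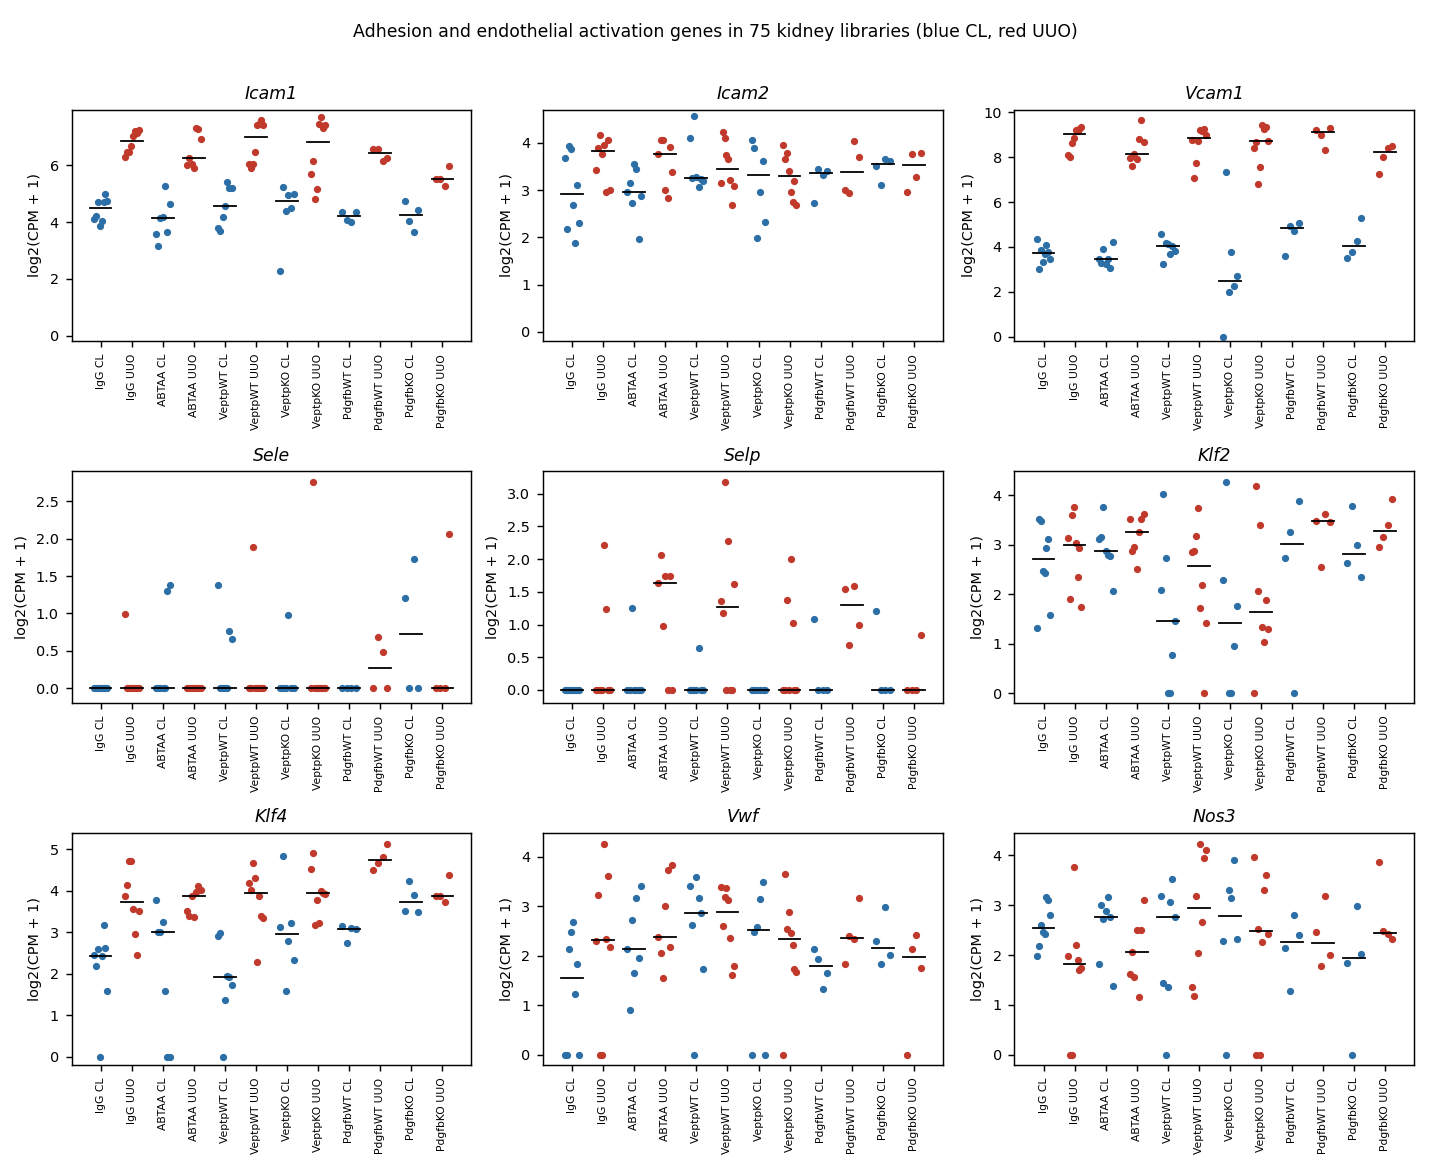
Level of each of the 9 genes, as log2(CPM + 1), in the 75 libraries (points) by group, with the group median as a line, CL in blue and UUO in red; the vertical scale differs between panels. *Vcam1* and *Icam1* separate red from blue without overlap in 5 of 6 kinds of mice, and *Sele* and *Selp* lie at 0 in most libraries.

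*Icam1* and *Vcam1*, the integrin ligands for firm adhesion, rose with UUO in all 6 kinds of mice. In IgG-treated mice *Vcam1* was at a lowest, median, and highest level of 7.05, 12.4, and 19.3 CPM in CL kidneys and 254, 518, and 641 CPM in UUO kidneys (n = 8 each). Every UUO library was above every CL library. The log2 fold change was 5.16 ± 0.29 (SE), or 35.7-fold, with an adjusted p of 1.22e-15 by edgeR's quasi-likelihood test.

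*Icam1* in the same mice stood at 13.6, 21.5, and 30.6 CPM in CL and 76.5, 116.0, and 149 CPM in UUO kidneys. These groups did not overlap either. Its log2 fold change was 2.41 ± 0.26 (adjusted p = 9.52e-09 by edgeR), or 5.32-fold. Thus 2 of 2 tested genes were called in IgG-treated mice, where 34.5% of all 9579 tested genes were called (16.3% higher, 18.2% lower) and groups did not overlap for 9.42%.

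In ABTAA-treated mice both genes also rose. *Vcam1* went from 7.27, 9.93, and 17.5 CPM in CL to 193, 278, and 796.5 CPM in UUO kidneys (n = 7 each). Its log2 fold change was 5.09 ± 0.30 (adjusted p = 9.64e-15 by edgeR). *Icam1* went from 7.895, 16.8, and 37.8 CPM to 58.7, 75.8, and 158 CPM, a log2 fold change of 2.56 ± 0.28 (adjusted p = 1.54e-08). UUO and CL groups did not overlap for either gene, against 6.73% of all genes, and 25.1% of all genes were called (12.6% higher, 12.5% lower).

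The levels in UUO kidneys split by the form of library name, while the change with UUO was present in each form. In IgG UUO kidneys *Icam1* ranged from 76.5 to 102 CPM in the 4 plain libraries and from 131 to 149 CPM in the 4 split libraries. In ABTAA UUO kidneys it ranged from 58.7 to 75.8 CPM in 4 plain and from 119 to 158 CPM in 3 split libraries. *Vcam1* followed the same order, with medians of 334 and 600.5 CPM in IgG UUO and 244 and 444 CPM in ABTAA UUO kidneys. Within the forms, the *Icam1* log2 fold change in IgG-treated mice was 2.14 in plain and 2.59 in split libraries, and in ABTAA-treated mice 2.41 and 2.60. For *Vcam1* these values were 4.65 and 5.53, and 4.55 and 5.54, and all 8 were called. Without the 10 ABTAA-arm libraries that held both *Xist* and Y-linked counts, *Icam1* changed by 2.52 in IgG-treated and 2.595 in ABTAA-treated mice and *Vcam1* by 5.24 and 5.27, all called. The part of the form, and of what moves with it, in these levels was not tested.

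The direct comparison of ABTAA with IgG called neither gene, nor any of the 9579 tested (0.0%; 340 genes had an unadjusted p under 0.05). In UUO kidneys *Icam1* differed by a log2 fold change of -0.20 (95% interval -0.68 to 0.28, adjusted p = 1.0 by edgeR) and *Vcam1* by -0.34 (-0.80 to 0.12). By form of name, *Vcam1* in UUO kidneys ranged from 193 to 278 CPM in plain ABTAA and from 254 to 463 CPM in plain IgG libraries. In split libraries it ranged from 409.5 to 796.5 and from 573 to 641 CPM, and these ranges overlapped in both forms. For *Icam1* the plain ranges did not overlap, at 58.7 to 75.8 CPM in ABTAA and 76.5 to 102 CPM in IgG libraries. The split ranges of *Icam1* overlapped, at 119 to 158 and 131 to 149 CPM. The share of all genes without overlap was not counted by form. The differences in plain libraries were -0.42 for *Icam1* and -0.51 for *Vcam1* (adjusted p = 0.855 and 0.835; unadjusted p = 0.0599 and 0.0147), and in split libraries 0.0415 and -0.12. In CL kidneys the differences were -0.34 (-0.95 to 0.27) for *Icam1* and -0.28 (-0.97 to 0.42) for *Vcam1*. The responses to UUO differed by 0.15 (-0.62 to 0.91) for *Icam1* and -0.07 (-0.98 to 0.85) for *Vcam1*. These intervals leave room for differences of over 1.5-fold in either direction for the responses.

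VeptpWT mice showed the same pair rising, and *Klf4* with them. *Vcam1* stood at 8.55, 15.4, and 22.6 CPM in CL (n = 7) and 135, 470, and 612 CPM in UUO kidneys (n = 8), with no overlap. Its log2 fold change was 4.87 ± 0.66 (adjusted p = 5.6e-06 by edgeR). *Icam1* stood at 12.0, 22.8, and 41.4 CPM in CL and 59.5, 128, and 192 CPM in UUO kidneys, a log2 fold change of 2.22 ± 0.41 (adjusted p = 0.00024). *Klf4* stood at 0.0, 2.795, and 6.84 CPM in CL and 3.86, 14.4, and 24.2 CPM in UUO kidneys, and 7 of 8 UUO libraries were above the highest CL library. Its log2 fold change was 1.98 ± 0.45 (adjusted p = 0.00178), so 3 of 5 tested genes were called, where 18.4% of all 11916 genes were (10.0% higher, 8.38% lower). Groups did not overlap for 5.56% of all genes.

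In VeptpKO mice *Icam1* and *Vcam1* rose and *Klf4* did not pass. *Vcam1* stood at 0.0, 4.67, and 160 CPM in CL (n = 6) and 112, 419, and 693 CPM in UUO kidneys (n = 8), a log2 fold change of 4.18 ± 0.70 (adjusted p = 0.000297 by edgeR). The overlap came from CL replicate 2, at 160 CPM, while the other 5 CL libraries were at most at 12.7 CPM; without it the change was 6.21. That library also held 357 CPM of 4 injured proximal tubule markers and 357 CPM of 8 leukocyte markers, against at most 23.4 and 108 CPM in the other VeptpKO CL libraries, and a total of 278084 counts. *Icam1* stood at 3.90, 25.8, and 36.7 CPM in CL and 27.1, 113, and 205.5 CPM in UUO kidneys, a log2 fold change of 2.25 ± 0.45 (adjusted p = 0.00156). *Klf4* stood at 1.98, 6.82, and 27.5 CPM in CL and 7.96, 14.3, and 28.9 CPM in UUO kidneys, with a log2 fold change of 0.94 ± 0.46 (adjusted p = 0.24); without CL replicate 2 it was 1.36 with an adjusted p of 0.0341, and with form of library name as a covariate it was called at 0.99 (adjusted p = 0.0359). Thus 2 of 5 tested genes were called, where 7.96% of all genes were (4.47% higher, 3.48% lower) and groups did not overlap for 1.21%.

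In VeptpKO mice the calls depended on the form of library name. Among plain libraries, with 2 CL kidneys, *Icam1* differed by 1.1 (adjusted p = 0.72 by edgeR) and *Vcam1* by 1.73 (adjusted p = 0.698), and 0 of all 7778 genes tested were called. Those CL kidneys had *Vcam1* at 0.0 CPM and, in CL replicate 2, at 160 CPM. Among split libraries the log2 fold changes were 2.79 for *Icam1*, 6.56 for *Vcam1*, and 1.39 for *Klf4*, and all 3 were called, as were 2651 of all 12556 genes. In VeptpWT mice the *Icam1* changes were 2.42 and 2.37 and the *Vcam1* changes 4.31 and 5.34, each called. Without the 6 *Veptp*-arm libraries that held both *Xist* and Y-linked counts, *Icam1* changed by 2.27 in VeptpWT and 2.64 in VeptpKO mice and *Vcam1* by 4.99 and 6.37, all called. *Klf4* in VeptpWT UUO kidneys had a median of 18.0 CPM in plain and 9.35 CPM in split libraries, the opposite order to *Icam1*, at 64.4 and 172 CPM.

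*Icam2* and *Nos3*, genes of resting endothelium, were not called in the *Veptp* arm. *Icam2* had medians of 8.55 CPM in VeptpWT CL, 9.93 in VeptpWT UUO, 9.01 in VeptpKO CL, and 8.86 CPM in VeptpKO UUO kidneys. Its log2 fold change with UUO was 0.03 (95% interval -0.62 to 0.68) in VeptpWT and 0.06 (-0.69 to 0.82) in VeptpKO mice. *Nos3* changed by 0.70 (-0.34 to 1.73) and -0.23 (-1.37 to 0.91). By form of name, its VeptpWT medians were 1.71 CPM in CL and 2.34 CPM in UUO plain libraries. In split libraries they were 6.58 and 15.3 CPM, with overlapping ranges. VeptpKO medians were 1.95 and 2.39 CPM in plain and 8.35 and 6.60 CPM in split libraries. Both intervals of *Icam2* exclude a rise of the size seen for *Icam1*.

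In the library names, numbers 3, 4, 7, and 8 stand for opposite genotypes in CL and UUO libraries. The labels do not say whether a number marks an animal; if it does, the genotype labels of some of these libraries would be exchanged, and the values between VeptpKO and VeptpWT mice rest on the labels as given. Without those libraries the differences in UUO kidneys were -0.13 for *Icam1*, 0.0230 for *Vcam1*, and -0.0946 for *Klf4*, none called. No gene was called between VeptpKO and VeptpWT mice in UUO kidneys, in CL kidneys, or in the response to UUO (0.0% each; 426, 229, and 323 of all genes had an unadjusted p under 0.05). *Ptprb*, the deleted gene, had medians of 34.2 CPM in VeptpKO and 62.4 CPM in VeptpWT CL kidneys and 28.5 and 42.5 CPM in UUO kidneys, with overlapping ranges. In UUO kidneys the differences were -0.11 (-0.85 to 0.64) for *Icam1*, -0.02 (-1.07 to 1.02) for *Vcam1*, and 0.10 (-0.68 to 0.88) for *Klf4* on the log2 scale. By form of name, *Icam1* medians there were 43.0 CPM in VeptpKO and 64.4 CPM in VeptpWT plain libraries, with overlapping ranges. In split libraries both were at 172 CPM. Over the alternatives the *Icam1* difference ran from -0.749 to 0.193, and none called it. *Klf4* in CL kidneys was 1.13 higher in VeptpKO mice, with an unadjusted p of 0.0358 and an adjusted p of 1.0 by edgeR.

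**Figure D2:**
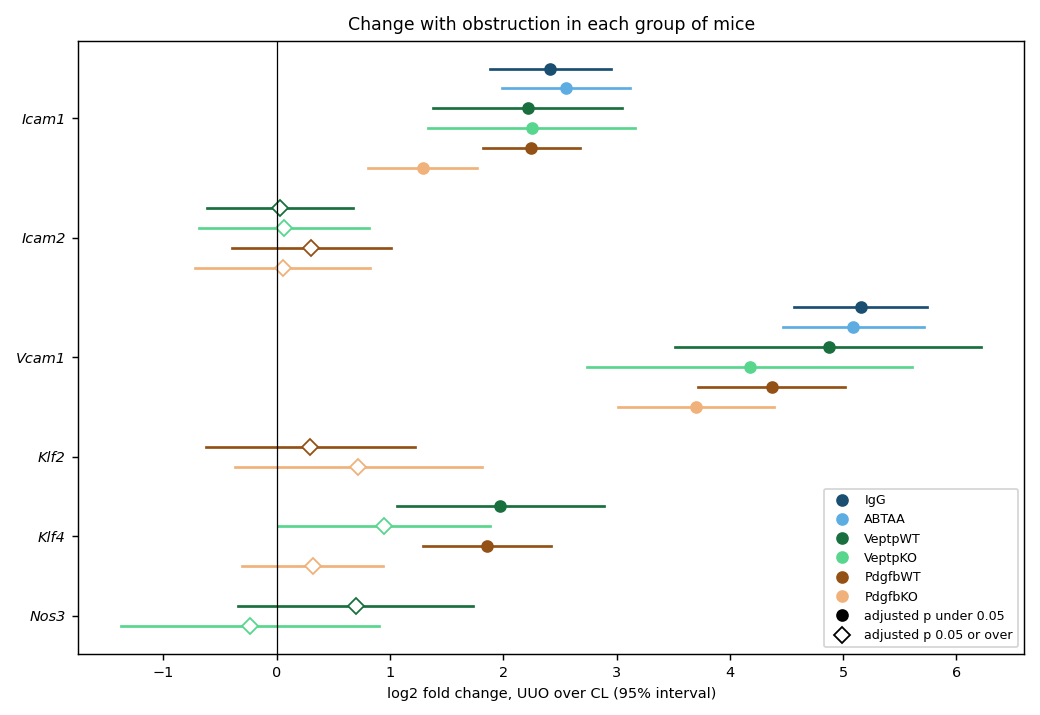
Log2 fold change of UUO over CL kidneys (points) with its 95% interval (lines) for each of the 6 genes that could be tested, by kind of mouse; filled circles have an adjusted p under 0.05 by edgeR's quasi-likelihood test and open diamonds do not. *Vcam1* lies between 3.70 and 5.16 and *Icam1* between 1.29 and 2.56, while all intervals of *Icam2*, *Klf2*, and *Nos3* include 0.

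In PdgfbWT mice *Icam1*, *Vcam1*, and *Klf4* rose, and every UUO library was above every CL library for each. *Klf4* was at 7.91, 5.69, 7.52, and 7.47 CPM in the 4 CL and 21.7, 24.3, 27.1, and 33.95 CPM in the 4 UUO libraries, a log2 fold change of 1.86 ± 0.27 (adjusted p = 6.26e-06 by edgeR). *Icam1* was at 19.2, 15.6, 15.0, and 19.2 CPM in CL and 93.35, 93.5, 70.8, and 75.9 CPM in UUO libraries, a change of 2.25 ± 0.21 (adjusted p = 7.69e-09). *Vcam1* was at 11.3, 29.9, 25.6, and 33.1 CPM in CL and 602, 512, 322, and 637 CPM in UUO libraries, a change of 4.37 ± 0.32 (adjusted p = 1.61e-10). Of 5 tested genes 3 were called, where 37.3% of all 10923 genes were (17.9% higher, 19.4% lower), and 34.2% of all genes had groups that did not overlap.

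In libraries labelled PdgfbKO, *Icam1* and *Vcam1* rose and *Klf4* was not called. *Icam1* was at 26.1, 15.3, 11.6, and 20.3 CPM in CL and 44.2, 44.55, 37.4, and 62.1 CPM in UUO libraries, a log2 fold change of 1.29 ± 0.23 (adjusted p = 0.0011 by edgeR), which was not called in the fit of all 12 groups (1.31, adjusted p = 0.218). *Vcam1* was at 10.4, 12.7, 18.5, and 37.6 CPM in CL and 150, 255, 337, and 361.5 CPM in UUO libraries, a change of 3.70 ± 0.33 (adjusted p = 1.21e-07). *Klf4* was at 10.4, 17.8, 13.9, and 10.2 CPM in CL and 13.6, 13.7, 12.2, and 19.9 CPM in UUO libraries, and 1 of 4 UUO libraries was above the highest CL library. Its change was 0.32 (-0.30 to 0.94, adjusted p = 0.613). Thus 2 of 5 were called, where 6.37% of all genes were (3.95% higher, 2.42% lower) and groups did not overlap for 11.3%. *Pdgfb* itself, the deleted gene, had medians of 17.6 CPM in PdgfbKO and 8.73 CPM in PdgfbWT CL kidneys and of 37.9 and 56.4 CPM in UUO kidneys; counts over the whole gene did not mark the knockout in CL kidneys, and which part was deleted was not examined here.

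Set directly against PdgfbWT UUO kidneys, all 3 of these genes were lower in UUO kidneys labelled PdgfbKO. The log2 fold change was -0.80 ± 0.18 for *Icam1* (1.74-fold lower, adjusted p = 0.00242 by edgeR), -0.87 ± 0.25 for *Vcam1* (1.82-fold, adjusted p = 0.0151), and -0.79 ± 0.23 for *Klf4* (1.73-fold, adjusted p = 0.0188). The groups did not overlap for *Icam1* and *Klf4*, against 22.2% of all genes, and 18.6% of all genes were called (12.0% higher, 6.6% lower). *Icam2* (0.04, -0.61 to 0.69) and *Klf2* (0.19, -0.65 to 1.02) were not called. The *Icam1* call held with each library left out (adjusted p from 0.000714 to 0.0216). DESeq2 called *Icam1* alone, and a fit of all 12 groups together called none (adjusted p = 0.337, 0.408, and 0.318). Without PdgfbWT UUO replicate 4 or PdgfbKO UUO replicate 2 the calls of *Vcam1* and *Klf4* were lost, and without PdgfbKO UUO replicate 3 that of *Klf4*.

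In CL kidneys no gene was called between these mice (0.0%; 379 genes had an unadjusted p under 0.05), although every PdgfbKO CL library had more *Klf4* than every PdgfbWT CL library, a log2 difference of 0.75 (0.03 to 1.48, unadjusted p = 0.0425). Groups failed to overlap there for 2.1% of all genes. The difference between the responses to UUO was called for *Klf4*, at -1.54 ± 0.42 (adjusted p = 0.0232 by edgeR), where 8.55% of all genes were called (6.66% higher, 1.9% lower). For *Icam1* it was -0.96 ± 0.33 (adjusted p = 0.0699) and for *Vcam1* -0.67 ± 0.48 (adjusted p = 0.449). The *Klf4* call was lost in the fit of all 12 groups (adjusted p = 0.372) and without PdgfbKO CL replicate 2 (adjusted p = 0.0533) or PdgfbKO UUO replicate 3 (0.0554), and *Icam1* was called without PdgfbKO CL replicate 3 (0.0437) or PdgfbKO UUO replicate 4 (0.023).

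**Figure D3:**
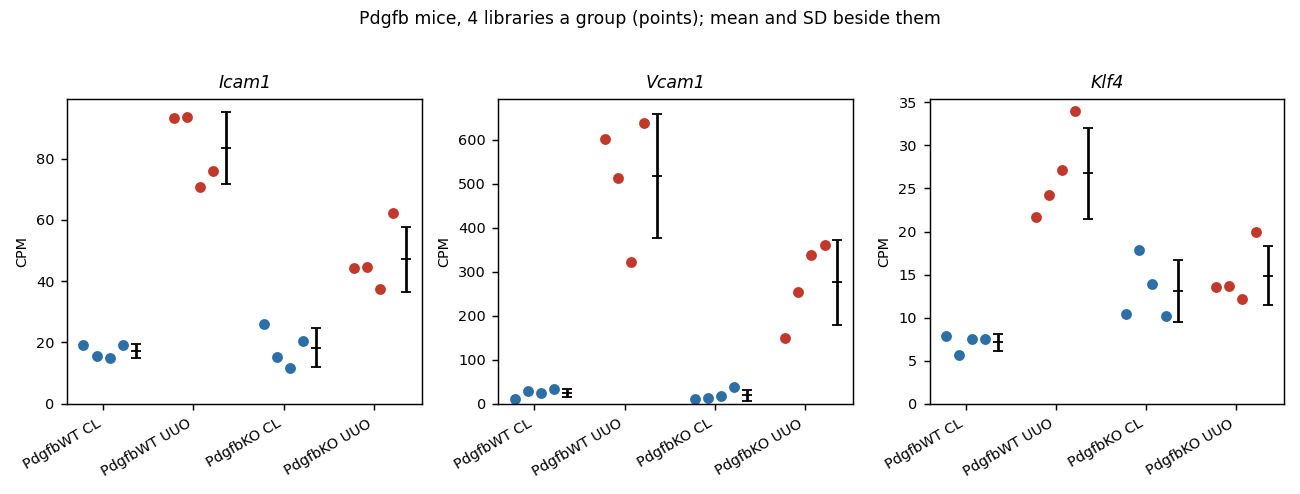
CPM of *Icam1*, *Vcam1*, and *Klf4* in the 4 libraries of each *Pdgfb*-arm group (points), with the mean and SD beside them, CL in blue and UUO in red. PdgfbKO UUO libraries lie below PdgfbWT UUO libraries for *Icam1* and *Klf4*, and *Klf4* in PdgfbKO mice covers 10.2 to 17.8 CPM in CL and 12.2 to 19.9 CPM in UUO kidneys.

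Marker lists of several cell types differed in level beside the 3 genes in the *Pdgfb* UUO kidneys. The summed level of 12 endothelial markers ranged from 233 to 381 CPM in PdgfbKO UUO and from 349 to 458 CPM in PdgfbWT UUO kidneys, and 3 of its 11 tested genes were lower (*Pecam1*, *Cdh5*, *Flt1*), where 18.6% of all genes were called and 6.6% were lower. The sum of 8 leukocyte markers ranged from 242 to 326 and from 383 to 579 CPM, with 3 of 5 tested genes lower (*Itgam*, *Ptprc*, *Adgre1*). Injured proximal tubule markers ranged from 541 to 894 and from 951 to 1487 CPM, with 1 of 4 lower (*Krt20*). The 5 kidney tubule markers ranged from 4567 to 7631 and from 2998 to 3491 CPM, with 4 of 5 higher. Markers of fibroblasts and pericytes ranged from 121 to 285.8 CPM in PdgfbKO UUO and from 331 to 449 CPM in PdgfbWT UUO kidneys, and 3 of 4 tested genes were lower (*Pdgfrb*, *Col1a1*, *Acta2*). Apart from the endothelial sum, these sums did not overlap between the groups, as was the case for 22.2% of all genes. All 12 endothelial markers had counts in both groups, and *Cd3e* of the leukocyte list was at 0 in PdgfbKO UUO kidneys. The part of these lists, and of the libraries with both *Xist* and Y-linked counts, in the lower *Icam1*, *Vcam1*, and *Klf4* was not tested.

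Endothelial sums are given for each kind of mouse, and differences between kinds were not tested. The median was 380 CPM in IgG CL and 376 CPM in IgG UUO kidneys, 398 and 389.7 CPM in ABTAA, 386 and 416 CPM in VeptpWT, and 371 and 409 CPM in PdgfbWT kidneys. In ABTAA-treated and in PdgfbWT mice 1 of 11 tested markers was higher (*Cdh5*), where 12.6% and 17.9% of all genes were, and in VeptpWT mice 0 of 11 passed. In VeptpKO mice the median sum was 345 CPM in CL (267 to 784 CPM) and 299.9 CPM in UUO kidneys (218 to 441 CPM), and 1 of 11 tested markers was lower (*Emcn*; 3.48% of all genes). In PdgfbKO mice the median sum was 389.5 CPM in CL and 260 CPM in UUO kidneys, 1 of 11 tested markers was lower (*Flt1*; 2.42% of all genes), and 3 of 4 UUO libraries (265, 233, and 255 CPM) were below every CL library (365 to 398 CPM) while the other was at 380.6 CPM. In IgG-treated mice 2 of 11 tested endothelial markers rose (*Pecam1*, *Cdh5*) and 1 fell (*Flt1*), where 34.5% of all genes were called. Injured proximal tubule markers rose from a median of 18.7 to 1779 CPM in IgG-treated mice, and the leukocyte sum from 140 to 589 CPM; all 4 and all 5 of their tested genes rose. The part of tubule and leukocyte transcripts in the *Icam1* and *Vcam1* rise was not tested.

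**Figure D4:**
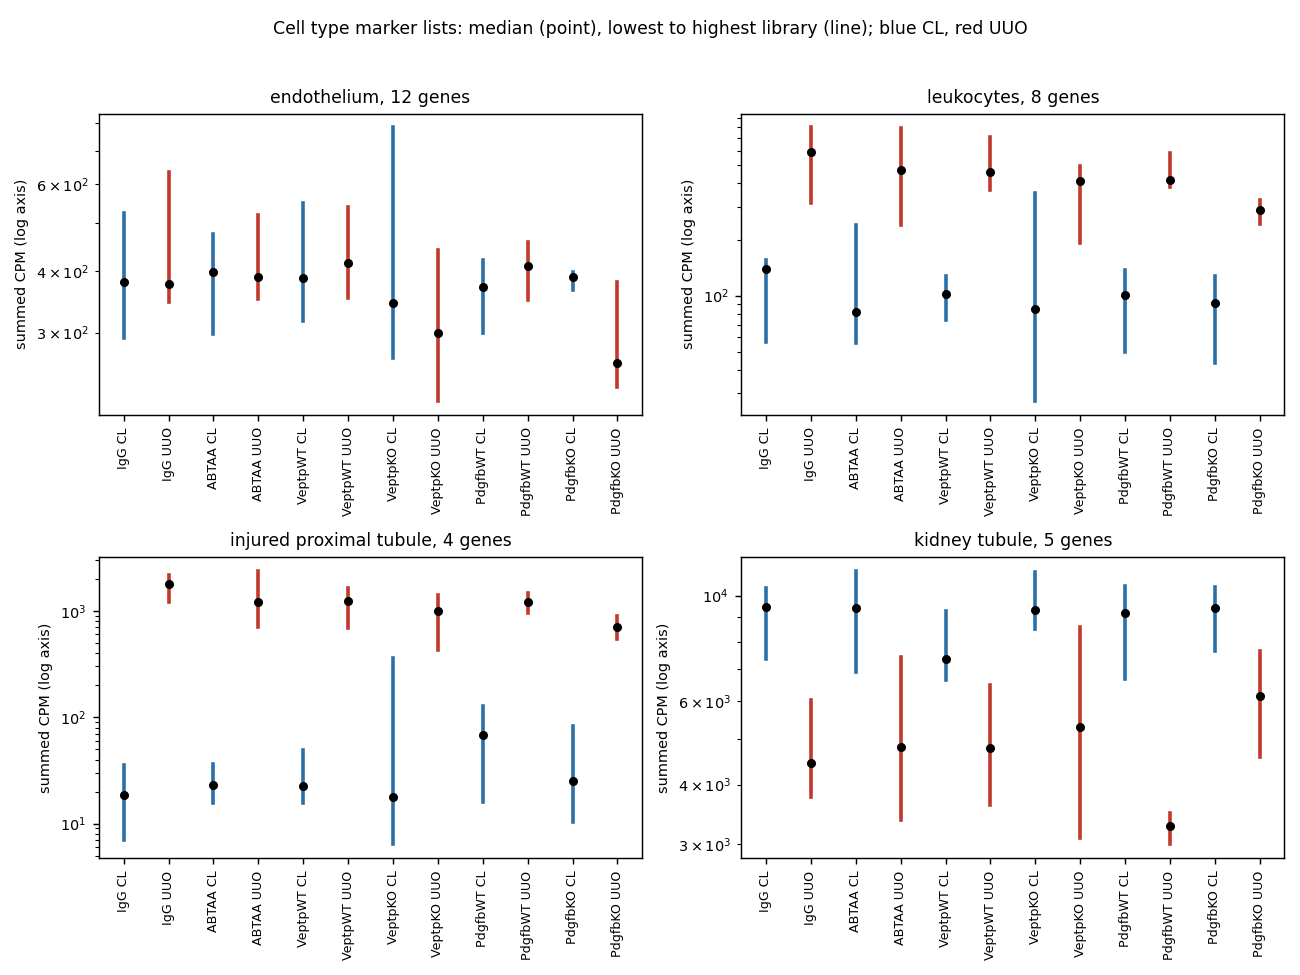
Summed CPM of 4 cell type marker lists by group on a log axis, as the median library (point) and the lowest to highest library (line), CL in blue and UUO in red. Endothelial medians lie between 260 and 416 CPM, while in IgG-treated mice the leukocyte median is 140 CPM in CL and 589 CPM in UUO kidneys.

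The genes whose levels ran closest to *Icam1* and *Vcam1* over the 75 libraries were sought among 9554 genes tested in all arms, on log2(CPM + 1) with the mean of each arm and form subtracted. For *Vcam1* they were *Havcr1*, a marker of injured proximal tubule (Pearson r = 0.965), *Icam1* (0.961), and the complement gene *C3* (0.954). For *Icam1* they were *Gm47079* (0.962), *Vcam1* (0.961), and *Havcr1* (0.941). These values describe libraries that share the contrast of CL and UUO kidneys. *Gm47079* is an antisense gene at chr9:21028307-21032357 (mm10, minus strand) whose exon overlaps the last 511 bases of *Icam1* (chr9:21015985-21028817, plus strand), all in the *Icam1* untranslated region. No source used here states whether counting used strand, so reads of these genes cannot be told apart there.

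The other genes of resting endothelium and the low genes gave few calls or too few counts to test. *Klf2*, tested in the *Pdgfb* arm, was at medians of 7.09 and 10.1 CPM in PdgfbWT CL and UUO kidneys, a log2 fold change of 0.30 (-0.62 to 1.22), and changed by 0.72 (-0.37 to 1.81) in PdgfbKO mice. *Icam2* changed there by 0.31 (-0.39 to 1.01) and 0.05 (-0.72 to 0.83). Untested *Vwf* medians lay between 1.94 CPM in IgG CL and 6.39 CPM in VeptpWT UUO kidneys. *Nos3* had medians of 4.80 and 2.52 CPM in IgG CL and UUO kidneys. Neither passed the filter in the ABTAA arm, and without a filter neither was called in IgG-treated mice (*Vwf* 1.13, adjusted p = 0.168; *Nos3* -0.98, adjusted p = 0.253 by edgeR). *Klf4*, also under the filter in the ABTAA arm, was then called in IgG-treated (1.39, adjusted p = 0.00421) and ABTAA-treated mice (1.1, adjusted p = 0.0237). The *Klf4* call in IgG-treated mice was absent in split libraries alone (0.668, adjusted p = 0.385), without libraries under 400000 counts (0.897, 0.202), and without those with both *Xist* and Y-linked counts (1.09, 0.106). In ABTAA-treated mice *Klf4* was called in each of these, at 4.38, 1.17, and 2.18. The 4.38 rests on 3 split CL libraries near the floor, at 0.0 to 1.99 CPM. In plain libraries the ABTAA groups overlapped, at 6.98 to 12.7 CPM in CL and 9.39 to 13.6 CPM in UUO kidneys.

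Selectin transcripts were scarce. *Selp*, which encodes P-selectin, had 4 counts in 4 of 36 CL libraries and 41 counts in 20 of 39 UUO libraries, at most 5 in a library. By group it had 0 counts in IgG CL and 2 in IgG UUO, 1 and 6 in ABTAA, 1 and 15 in VeptpWT, 0 and 7 in VeptpKO, 1 and 10 in PdgfbWT, and 1 and 1 in PdgfbKO kidneys. Without a filter its change with UUO was called in no arm, with the lowest adjusted p at 0.121 in VeptpWT mice by edgeR. *Sele*, which encodes E-selectin, had 8 counts in 8 of 36 CL and 9 counts in 6 of 39 UUO libraries. It had 0 counts in IgG CL, ABTAA UUO, and PdgfbWT CL kidneys, which at 3 counts over a group allow levels of up to 0.609, 0.674, and 0.940 CPM. These limits cover counting error alone.

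Partner and pathway genes from lists chosen with earlier results of these data known gave the setting. In IgG-treated mice 34.5% of all genes were called, 16.3% higher and 18.2% lower, and the counts of each list are to be read against these shares. Of 15 leukocyte ligand genes, 8 were tested in the ABTAA arm, and in IgG-treated mice 5 rose (*Itgam*, *Itgb2*, *Itgb1*, *Cd44*, *Msn*) and 1 fell (*Rdx*). *Itgam* and *Itgb2* encode the chains of the ICAM1-binding integrin Mac-1, and *Itgam* rose by 2.63 ± 0.34 on the log2 scale (adjusted p = 6.88e-08 by edgeR). *Cd44*, a hyaluronan receptor that also binds E-selectin, rose by 4.68 ± 0.42. In PdgfbKO against PdgfbWT UUO kidneys, where 6.6% of all genes were lower and 12.0% higher, 3 of 11 tested ligand genes were lower (*Itgam*, *Itgb1*, *Msn*).

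Of 20 NF-kB and cytokine-induced genes, 15 of 15 tested rose in IgG-treated and in ABTAA-treated mice, where 16.3% and 12.6% of all genes were called higher. Their medians were 1.98 and 1.81, against medians of 0.0177 and -0.000776 over all genes. In VeptpWT mice 16 of 17 rose (10.0% of all genes), in VeptpKO 12 of 17 (4.47%), in PdgfbWT 17 of 17 (17.9%), and in PdgfbKO 11 of 17 (3.95%). The chemokine genes *Cxcl1* and *Ccl2* rose by 5.71 ± 0.45 and 4.73 ± 0.45 in IgG-treated mice. In PdgfbKO against PdgfbWT UUO kidneys 7 of 17 were lower (6.6% of all genes), among them *Cxcl1* (-0.92 ± 0.24) and *Nfkbiz* (-0.93 ± 0.21), while *Ccl2* was at 0.000624 ± 0.207.

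Of 20 KLF and shear-linked genes, 14 were tested in IgG-treated mice, where 8 rose and 2 fell (*Klf9*, *Klf15*). *Klf6*, an injury-induced relative of *Klf4*, rose by 2.10 ± 0.18, and *Edn1*, which encodes the vasoconstrictor endothelin-1, by 3.17 ± 0.36. In PdgfbKO against PdgfbWT UUO kidneys 8 of 19 were lower (6.6% of all genes), *Thbd* (-1.09 ± 0.28), which encodes thrombomodulin, among them, and *Klf15* was higher (1.31 ± 0.23). Of 20 other endothelial adhesion genes 14 were tested in IgG-treated mice and 6 rose, with *Mcam* at 1.63 ± 0.29. Of 16 nitric oxide genes 9 were tested, and 6 rose and 1 fell (*Ddah1*, -0.75 ± 0.14). Of 16 Weibel-Palade and haemostasis genes 11 were tested, and 4 rose, with *Anxa2* at 1.88 ± 0.17, and 2 fell. The 5 platelet markers were not tested in the ABTAA arm; their sum ranged from 5.09 to 22.2 CPM in IgG CL and from 13.8 to 37.9 CPM in IgG UUO kidneys. Fibroblast and pericyte markers rose in IgG-treated mice, 4 of 4, with *Col1a1* at 3.66 ± 0.26, and 4 of 5 kidney tubule markers fell.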

How the data were processed

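RNA of whole kidneys was sequenced in 75 libraries. The authors mapped reads to mm10 with STAR 2.7.3a, removed duplicates by molecular identifiers with UMI-tools 1.1.4, and counted genes with featureCounts of Subread 1.4.6-p5, per the labels. The deposited values are raw counts per gene, not normalized, and every column was matched to a sample. Groups came from the labels. The members, gene lists, and tests were chosen with earlier results of these data known.

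Each arm was fitted over its 4 groups with edgeR 4.0.16 in R 4.3.3, with TMM factors, the default filter on low counts, and quasi-likelihood tests. The exact test of edgeR, used in the study, served as an alternative. Benjamini-Hochberg adjustment ran over all genes tested in an arm, with a threshold of 0.05. The procedure was tested on simulated data. Named genes were the 9 members, up to 4 genes of each other list with the lowest adjusted p in IgG-treated mice, the 3 genes most like a member, and the deleted genes; other genes were named after their values were seen. Figures were drawn with matplotlib. Animals are not named in the labels, so p-values measure the spread between these libraries. In the ABTAA arm 3 numbers recur in both CL and UUO names. The libraries of a number deviated together (r = 0.389, 0.203, and 0.161, and -0.123 across numbers). Deviations were taken from the mean of each group and form, here 3 libraries, so the value across numbers is not independent of the others. These libraries were taken as pairs in the replicate block alone, and the fits of all 4 groups did not pair them. Alternatives were no TMM factors, DESeq2 1.42.0, the exact test, no filter, a mean count of at least 20, name form as a covariate and alone, libraries over 400000 counts, *Xist* as a covariate, fits of all 12 groups, the replicate block, and each library left out. Depth, from 172827 to 2341800 counts, limits genes at a few counts.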

Additional observations from a re-analysis of the deposited data

Results flagged for a closer look

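In 3 of 48 groups of a gene that could be tested, the highest library stood apart from the others by more than Dixon's test at 95% allows; chance alone marks about 1 group in 20. *Vcam1* in ABTAA UUO replicate 6 was at 796.5 CPM, against 193 to 444 CPM in the other 6 libraries. *Vcam1* in VeptpKO CL replicate 2 was at 160.3 CPM, against 0.0 to 12.7 CPM, and *Klf4* in that library was at 27.49 CPM, from 6 counts, against 1.98 to 8.40 CPM. The difference between the responses to UUO in PdgfbKO and PdgfbWT mice passed its test for *Klf4*, at -1.539 on the log2 scale (adjusted p = 0.0232 by edgeR). That call was lost in the fit of all 12 groups (adjusted p = 0.372) and without PdgfbKO CL replicate 2 (0.0533) or PdgfbKO UUO replicate 3 (0.0554).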

How the results depend on the processing

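Of the adhesion genes, *Icam1* and *Vcam1* were called higher with UUO under nearly every alternative. In IgG, ABTAA, VeptpWT, and PdgfbWT mice both were called under each one run. In VeptpKO mice, of 2 genes called, 0 were in plain libraries alone (0 of 7778 genes) and 1 without numbers 3, 4, 7, and 8 (108 of 11034 genes), where *Icam1* was at 2.09 (adjusted p = 0.0901). Of the 3 genes lower in PdgfbKO UUO kidneys, DESeq2 called 1 and the fit of all 12 groups 0; that fit also called 1 rather than 2 genes for PdgfbKO UUO over CL, *Icam1* being lost. For the PdgfbKO response, with 1 gene called, the counts were 2 without TMM factors, 0 with DESeq2, 0 at a mean count of at least 20, 2 with *Xist* as a covariate, and 0 with all 12 groups. *Klf4*, the gene called, had no adjusted p from DESeq2 and was not tested at a mean count of at least 20, so those counts are not lost calls of it. Leaving out each library gave 1 to 3 called for PdgfbKO UUO and 0 to 2 for the PdgfbKO response. The causes of the other changes were not tested. The settings without a block in the same libraries, and without libraries holding both *Xist* and Y-linked counts, were chosen after seeing the data; the latter could not be run in the *Pdgfb* arm.

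The replicate block called 3 genes in ABTAA mice, *Klf4* added to *Icam1* and *Vcam1*, as did those libraries without the block. *Klf4* stood near the floor, at 0.0 to 1.99 CPM, in the 3 CL libraries of that block. In the *Veptp* arm the numbers correlated at 0.0575 to 0.425, not all over 0.1, so they were not taken as pairs. Numbers with opposite genotypes in CL and UUO names correlated at 0.425, 0.285, 0.127, and 0.276, and those with 1 genotype at 0.194, 0.393, 0.0575, and 0.107. The block called 2 genes in VeptpKO mice and 5 in VeptpWT mice. Of these 5, *Icam1*, *Vcam1*, *Klf4*, and *Nos3* (adjusted p = 0.0300 by edgeR) were higher and *Vwf* was lower (-1.93, adjusted p = 0.0410). The same libraries without the block called 2 in each, with *Vwf* in VeptpWT mice at -1.96 (adjusted p = 0.0931).

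None of the sign changes concerned a called difference. Opposite in sign in split libraries alone were *Icam1* ABTAA UUO at 0.0415, *Icam1* ABTAA CL at 0.0350, *Vcam1* ABTAA response at 0.0084, *Icam1* VeptpKO UUO at 9.506e-05, *Vcam1* VeptpKO UUO at 0.0532, *Vcam1* VeptpKO CL at -1.17 and *Vcam1* VeptpKO response at 1.22. Opposite in sign without libraries under 400000 counts were *Vcam1* ABTAA response at 0.0048, *Icam1* VeptpKO UUO at 0.193, *Vcam1* VeptpKO UUO at 0.177, *Vcam1* VeptpKO CL at -1.23 and *Vcam1* VeptpKO response at 1.41. Opposite in sign without libraries with both *Xist* and Y-linked counts were *Vcam1* ABTAA response at 0.0341, *Icam2* VeptpKO UUO over CL at -0.137, *Vcam1* VeptpKO UUO at 0.114, *Vcam1* VeptpKO CL at -1.26, *Icam2* VeptpKO response at -0.319 and *Vcam1* VeptpKO response at 1.38. Opposite in sign with name form as a covariate were *Icam2* VeptpWT UUO over CL at -0.0229 and *Icam2* VeptpKO UUO over CL at -0.0063. Opposite in sign in plain libraries alone were *Icam1* VeptpKO CL at 0.567 and *Icam1* VeptpKO response at -1.32. Opposite in sign with *Xist* as a covariate were *Icam2* VeptpWT UUO over CL at -0.172, *Icam1* VeptpKO CL at 0.224 and *Icam1* VeptpKO response at -0.342. Opposite in sign without the libraries of numbers 3, 4, 7, and 8, which carry opposite genotypes in CL and UUO names were *Vcam1* VeptpKO UUO at 0.0230, *Klf4* VeptpKO UUO at -0.0945, *Icam1* VeptpKO CL at 0.0497 and *Icam1* VeptpKO response at -0.179. Opposite in sign with the replicate block were *Icam2* VeptpWT UUO over CL at -0.234 and *Vcam1* VeptpKO response at 1.03. Opposite in sign without the block in the same libraries were *Icam2* VeptpWT UUO over CL at -0.243 and *Vcam1* VeptpKO response at 1.03. Opposite in sign without TMM factors were *Icam2* PdgfbKO UUO at -0.226 and *Klf2* PdgfbKO UUO at -0.0774. With each library left out in turn, ranges that crossed 0 were -0.0112 to 0.426 for *Icam1* ABTAA response, -0.0555 to 0.286 for *Icam1* PdgfbKO CL, -0.258 to 0.0270 for *Icam1* VeptpKO CL, -0.286 to 0.0426 for *Icam1* VeptpKO UUO, -0.145 to 0.183 for *Icam1* VeptpKO response, -0.0763 to 0.164 for *Icam2* PdgfbKO UUO over CL, -0.121 to 0.400 for *Icam2* PdgfbKO UUO, -0.416 to 0.103 for *Icam2* PdgfbKO response. Further such ranges were -0.0494 to 0.471 for *Icam2* PdgfbWT UUO over CL, -0.161 to 0.244 for *Icam2* VeptpKO UUO over CL, -0.185 to 0.221 for *Icam2* VeptpKO response, -0.125 to 0.168 for *Icam2* VeptpWT UUO over CL, -0.574 to 0.368 for *Klf2* PdgfbKO CL, -0.0960 to 0.359 for *Klf2* PdgfbKO UUO, -0.177 to 0.765 for *Klf2* PdgfbKO response, -0.0481 to 0.894 for *Klf2* PdgfbWT UUO over CL. The other such ranges were -0.0588 to 0.238 for *Klf4* VeptpKO UUO, -0.523 to 0.108 for *Nos3* VeptpKO UUO over CL, -0.360 to 0.0924 for *Vcam1* ABTAA response, -0.891 to 0.0795 for *Vcam1* PdgfbKO CL, -0.938 to 0.0246 for *Vcam1* PdgfbKO response, -1.37 to 0.986 for *Vcam1* VeptpKO CL, -0.162 to 0.121 for *Vcam1* VeptpKO UUO, -1.01 to 1.35 for *Vcam1* VeptpKO response.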
